A study of Mus musculus with 2 samples.

Results

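Somatic cells of the foetal ovary (XX) and of the foetal testis (XY) were compared after 72 h in culture with vehicle. The comparison takes 8 of the 39 somatic libraries that the labels name, 4 XX replicates (F4, F7, F8 and F11) and 4 XY replicates (M2, M4, M5 and M6). Every embryo had a 129T2svJ father carrying the Oct4-eGFP transgene and a Swiss mother. Gonads were taken at E12.5 with the mesonephros attached, sexed by eye from the presence or absence of testis cords, and kept for 72 h in medium with DMSO only, the vehicle for the inhibitors that other samples of the study received. The mesonephros was then removed. Each sample is a pool of dissociated gonads, from which GFP-negative cells were sorted as the somatic fraction. All 8 libraries belong to the same library set, so the sequencing set did not differ between XX and XY. The features described are the 14537 autosomal genes that passed the filter on low counts, out of 15390 genes tested. Foxl2, Rspo1, Bmp2, Wnt4, Fst and Cyp26b1 are not among them, and 591 X- and Y-linked genes were left out.

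The supporting cells of the testis become Sertoli cells under SRY and SOX9, enclose the germ cells in cords and signal through desert hedgehog and PDGF to the interstitium, where foetal Leydig cells make androgens. The supporting cells of the ovary become pre-granulosa cells under FOXL2, RUNX1 and WNT/β-catenin signalling, leave the cell cycle early and later form follicles. Interstitial, smooth muscle, endothelial and blood cells are present in both gonads, so a difference between the sorted pools can be a difference in the number of cells of a type or in the RNA made by each cell, and bulk libraries cannot tell these apart.

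Each library held 1763507 to 3240658 molecules, each counted once by its unique molecular identifier. No difference between XX and XY libraries passed the test in total counts (exact permutation test, two-sided p = 0.971, n = 4 and 4), in the number of genes with a count (p = 0.457) or in the mitochondrial share of counts (1.24 to 1.74%, p = 0.229). The smallest p that 4 against 4 allows is 0.0286. The gonad transcription factors marked every library: Gata4 lay between 81.1 and 141 CPM (counts scaled to a library total of 1000000), Nr5a1 between 109 and 189 CPM and Wt1 between 218 and 535 CPM. All 8 libraries matched their labelled sex. The labels do not say which pools shared a litter or a culture plate, so the p-values measure the spread between these pools. The largest count of any gene was 8839 to 9811 in the 8 libraries, and 148 genes passed 2000 counts in at least 1 of them. Whether molecular identifiers ran short for such genes, which would compress their differences, was not tested.

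Ovarian and testicular somatic cells differed in many autosomal genes at this time. Of 14543 autosomal genes tested, 2930 (20.1%) were differentially expressed genes (DEGs), defined by an adjusted p below 0.05 and a difference of at least 1.5-fold in edgeR's quasi-likelihood test: 1367 (9.4%) were higher in XX and 1563 (10.7%) were higher in XY. Without the 6 genes named above the numbers were 1363 and 1562. The median fold of these DEGs was 2.2 in XX and 2.24 in XY. Steep differences were counted more often on the ovarian side, with 137 XX and 106 XY DEGs of at least 8-fold and 76 and 43 of at least 16-fold. No library of the lower group held a count for 24 XX and 8 XY DEGs. At 2-fold the order was the reverse, with 801 XX and 951 XY DEGs. Protein-coding genes made up 1253 of the XX and 1392 of the XY DEGs, and long non-coding RNAs 80 and 56. The values of the 4 XX libraries did not overlap those of the 4 XY libraries for 3891 of the 14537 genes (26.8%), and for 1180 XX and 1332 XY DEGs. A stricter test, which asks whether the difference itself exceeds 1.5-fold, left 693 XX and 742 XY DEGs, so smaller folds below are given with both counts. The authors' kind of test, limma voom with quality weights and the same 1.5-fold test, left 538 and 497 and is called the voom test below.

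**Figure D1:**
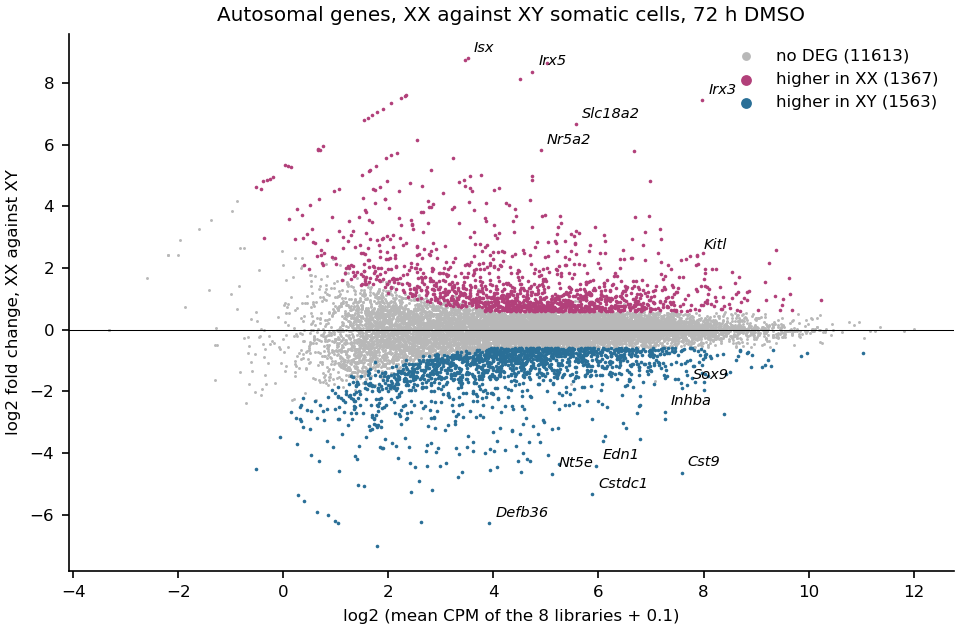
Log2 fold change of XX against XY somatic cells after 72 h in DMSO (vertical axis) against the log2 mean CPM of the 8 libraries plus 0.1 (horizontal axis), 1 point per autosomal gene tested. The 1367 DEGs higher in XX reach further from 0 than the 1563 higher in XY, with Irx3, Irx5 and Isx at the top and Defb36 and Cstdc1 low in the plot.

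The XX DEGs of largest fold included a protease gene, Adamdec1, and the Iroquois homeobox genes Irx3 and Irx5. Irx3, a transcription factor of pre-granulosa cells, stood at 510, 615, 406 and 466 CPM in XX replicates F11, F4, F7 and F8 and at 2.99, 2.98, 1.49 and 3.79 CPM in XY replicates M2, M4, M5 and M6 (log2 fold change 7.43 ± 0.24 SE, adjusted p = 1.73e-30). Its neighbour Irx5 stood at 49.1, 54.6, 52 and 56 CPM in XX, with a single count in 1 XY library and none in the other XY libraries, a ratio of 478 with a 95% counting interval of 85.5 to 1.89e+04. Every XX library was far above every XY library for both genes. Genes of largest fold were taken only from those without overlap, so the absence of overlap was required by the choice. Irx3 and Irx5 lie 556 kb apart on chromosome 8. The antisense transcript Irx3os, picked out after its values were seen, had 16.4, 4.11, 5.94 and 10.5 CPM in XX and no count in XY. It was at least 27.2-fold higher against a floor of 3 counts over the 4 XY libraries.

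Isx, a homeobox factor best known from intestine, had 20.1, 17.6, 27.9 and 24.6 CPM in XX and no count in XY (at least 71.1-fold higher). Pln, the phospholamban that restrains the calcium pump of the sarcoplasmic reticulum, had 22, 22.3, 23.5 and 19.9 CPM in XX and none in XY (at least 67.1-fold higher). Adamdec1, a secreted ADAM-family protease, had 57, 64.6, 63.9 and 72.7 CPM in XX and 1 count in all of XY (ratio 584, counting interval 104 to 2.31e+04). Cga, which encodes the α subunit shared by the pituitary glycoprotein hormones, had 77.1, 30, 39.5 and 33.5 CPM in XX and 1 count in XY (ratio 412, interval 73.5 to 1.63e+04). These genes were thus close to an on/off contrast at this depth, with F11 the highest XX library for Cga.

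Nr5a2, the orphan nuclear receptor LRH-1 that granulosa cells use later in follicles, reached 65, 51.7, 53.5 and 63.3 CPM in XX and 1.33, 1.49, 0.996 and 0 CPM in XY (log2 fold change 5.82 ± 0.46 SE). Slc18a2, the vesicular monoamine transporter, reached 120, 81.7, 78.2 and 94.2 CPM in XX and 0.997, 0, 1.99 and 0.474 CPM in XY (6.66 ± 0.42). Col8a1, a short-chain collagen, had the higher level of the non-Iroquois genes in this group, at 223, 142, 186 and 247 CPM in XX and 4.32, 1.99, 5.48 and 2.37 CPM in XY (5.78 ± 0.30). For each of these 3, every XX library was far above the highest XY library, though the choice by fold already required no overlap. The remaining genes of largest fold were L3mbtl4 (ratio 102, interval 17.8 to 4.05e+03), the crystallin Crygb (53.8, 18.1 to 264) and the actin-binding Ablim3 (40.9, 13.7 to 201). They also included the heparan sulphate sulphotransferase Ndst4 (log2 fold change 5.02), the solute carrier Slc35f1 (4.99) and the processed pseudogene Gm12361 (4.99), whose reads could come from its parent gene.

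The XX genes with the strongest statistics added Kitl, Lzts1, Niban1, Tnfrsf19, Smoc1 and Nopchap1. Kitl, the ligand of the germ cell receptor KIT, stood at 376, 376, 417 and 423 CPM in XX against 76.5, 81.1, 79.2 and 60.2 CPM in XY (2.42 ± 0.12, adjusted p = 1.22e-22). Lzts1 was 245 CPM on average in XX and 8.8 CPM in XY (4.82 ± 0.23). Tnfrsf19, a WNT-responsive receptor of the TNF family, was 111 and 11.1 CPM (3.33 ± 0.18). Smoc1, a secreted calcium-binding protein that modulates BMP signalling, was 259 and 60.5 CPM (2.10 ± 0.12). Its paralogue Smoc2 went the other way, at 27.1, 24.7, 56.2 and 30.9 CPM in XX and 252, 298, 264 and 277 CPM in XY (-2.91 ± 0.18), so the groups were apart in opposite directions for the 2 members of 1 family. Niban1 was 191 CPM in XX and 15.4 CPM in XY (3.64 ± 0.17), and Nopchap1 361 and 69.2 CPM (2.37 ± 0.12).

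**Figure D2:**
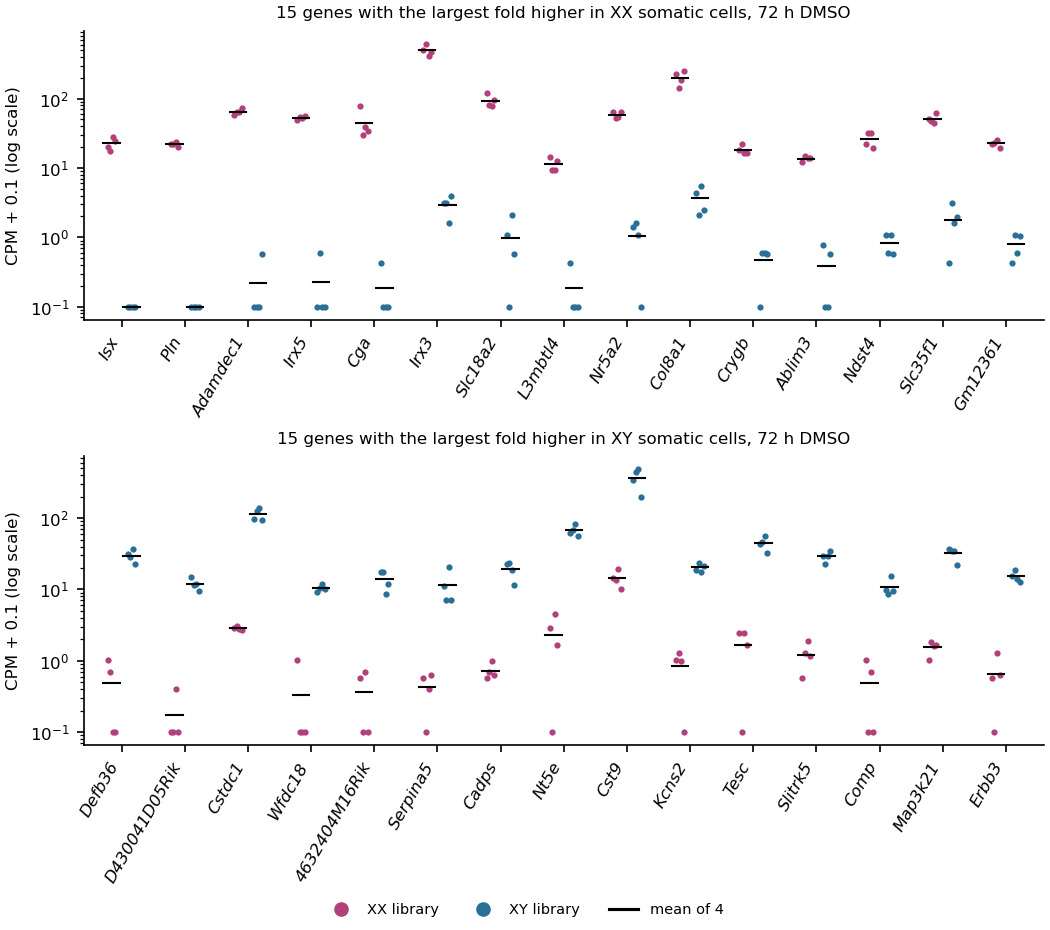
CPM plus 0.1 on a log scale for the 15 DEGs of largest fold in each direction among those with at least 10 CPM on average in the higher group and no overlap between groups (columns), with 1 point per library, XX in magenta, XY in blue, and a bar for the mean of 4. Several of the XX genes sit at 0.1 in XY libraries in which no molecule was counted, and most of the XY genes show small non-zero values in XX.

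The XY DEGs of largest fold included a long non-coding RNA gene, D430041D05Rik, and the protein-coding genes Defb36, Cstdc1 and Nt5e. Defb36, a β-defensin, had 31.6, 28.3, 36.4 and 22.3 CPM in XY and 3 counts in all of XX (ratio 91, interval 30.8 to 444). Cstdc1, a cystatin-domain gene, stood at 2.8, 2.94, 2.67 and 2.62 CPM in XX and 96.4, 127, 138 and 92.9 CPM in XY (-5.34 ± 0.37, adjusted p = 5.28e-17). Nt5e, the ecto-enzyme CD73 that makes extracellular adenosine, stood at 2.8, 0, 4.46 and 1.57 CPM in XX and 61.5, 69.1, 82.2 and 55.4 CPM in XY (-4.67 ± 0.34). The other genes of largest fold were the long non-coding D430041D05Rik (ratio 112, interval 19.8 to 4.48e+03), the WAP-domain inhibitor Wfdc18 (46.7, 12.6 to 391) and the serpin Serpina5 (34.4, 11.5 to 170). 4632404M16Rik (43.1, 14.4 to 212) overlaps Casq2 on the same strand and cannot be told from it with certainty. With log2 fold changes, the others were the dense-core vesicle factor Cadps (-4.77), the potassium channel subunit Kcns2 (-4.63), the synaptic adhesion gene Slitrk5 (-4.55), the kinase Map3k21 (-4.44), the neuregulin receptor Erbb3 (-4.43) and the cartilage matrix gene Comp (-4.46).

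Edn1, which encodes the vasoactive peptide endothelin, had the strongest statistics on the testis side, at 4.67, 4.11, 6.83 and 5.75 CPM in XX and 132, 129, 118 and 96.2 CPM in XY (-4.41 ± 0.25, adjusted p = 3.24e-20). Pdlim3, a LIM protein of the contractile apparatus, was 17.7 CPM in XX and 167 CPM in XY (-3.20 ± 0.18). The matrix protease Adamts5 was 9.77 and 125 CPM (-3.62 ± 0.21) and the transcription factor Osr2 17.2 and 203 CPM (-3.54 ± 0.20). Pappa, a protease that frees IGFs from their binding proteins, was 20.6 and 113 CPM (-2.41 ± 0.16). In each of these genes the XY libraries stayed above all XX libraries. They were chosen by the F statistic of this same contrast, so the separation is not further evidence.

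Of 20 pre-granulosa genes tested, 11 were higher in XX and 4 in XY, and the median log2 fold change was 1.72 against -0.01 over all autosomal genes. Over all 14543 autosomal genes 9.4% were higher in XX and 10.7% in XY, and 693 and 742 passed the stricter test. These are the background for every list below. All 11 passed the stricter test and 0 of the 4 (Gata2, Dpp4, Nr2f1 and Bmp4) did. The 4 became 1 without replicate F11 and 2 without F4. Besides Irx3, Irx5 and Kitl the 11 included Runx1, a transcription factor of the ovarian supporting lineage, at 81.8, 58.7, 55.3 and 88.9 CPM in XX and 3.32, 4.97, 7.47 and 7.11 CPM in XY (3.67 ± 0.24). Lgr5, a receptor for R-spondins, was 47.7, 58.2, 52.6 and 60.2 CPM in XX and 8.31, 15.9, 13.4 and 5.21 CPM in XY (2.37 ± 0.29). Msx1, a BMP-responsive homeobox gene, was 12.2, 12.9, 23.2 and 23 CPM in XX and 0.997, 1.99, 1.49 and 0 CPM in XY (3.99 ± 0.38). The XX values of all 3 lay above the highest XY value. Emx2, Ifitm1 and Sulf1 were also among them, with log2 fold changes of 1.59, 2.49 and 1.27, together with Cdkn1b, which is described with the cell cycle genes. The list holds known ovarian markers, so its direction is not independent evidence.

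On the testis side, the Sertoli transcription factors were split. Sox9 was 71.5, 94.6, 90.6 and 109 CPM in XX and 253, 358, 374 and 288 CPM in XY (-1.80 ± 0.20, adjusted p = 1.30e-10). Dmrt1, a later guardian of Sertoli identity, was 0.467, 0, 2.08 and 0 CPM in XX and 14.6, 14.4, 14.9 and 12.8 CPM in XY (-3.97 ± 0.46). Sox8 and Sox10, relatives of Sox9, had log2 fold changes of -2.84 and -2.65, with the call of Sox10 lost in the voom test. All 4 were apart in every library, but Sox9 kept a mean of 91.4 CPM in ovarian cells. Of 11 factors tested 6 were higher in XY and 2 in XX (5 and 2 in the stricter test, median -0.61). The 2 in XX were Gata6 (247 against 89.9 CPM, 1.46 ± 0.11) and Wt1 (498 against 243 CPM, 1.03 ± 0.10), which both gonads use. The 16 transcription factors shared by both gonads gave 3 in XX and 4 in XY (3 and 3 in the stricter test, median 0.24). Among the 4 were Tcf21 (-1.59 ± 0.15), Osr1 (-1.52 ± 0.23) and Nr2f2 (-0.99 ± 0.15), which did not pass the voom test.

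Sertoli products were higher in XY for 16 of 26 genes and in XX for 2 (13 and 2 in the stricter test), with a median log2 fold change of -1.74. As with the pre-granulosa list, the members are known markers, so the direction is not independent evidence. Cst9, a gene of the cystatin family, was 14.5, 13.5, 19 and 9.94 CPM in XX and 347, 443, 485 and 201 CPM in XY (-4.64 ± 0.28). Defb19, a β-defensin 24 kb from Defb36, was 92.5, 99.9, 79.3 and 79 CPM in XX and 456, 698, 762 and 413 CPM in XY (-2.74 ± 0.20). Replicate M6 was the lowest XY library for both, yet remained above every XX library.

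Ptgds, the prostaglandin D synthase that reinforces Sox9, was 27.6, 20, 31.5 and 33 CPM in XX and 162, 227, 220 and 127 CPM in XY (-2.69 ± 0.27). Aard, a Sertoli-enriched gene, was 33.1 and 185 CPM (-2.49 ± 0.19). Hsd17b3, which makes testosterone from androstenedione, was 1.91 CPM in XX and 30 CPM in XY (-3.95 ± 0.45). Tesc was 1.57 and 44.4 CPM (-4.63 ± 0.41), and Sostdc1, a secreted BMP and WNT antagonist, was 4.83 and 52.6 CPM (-3.37 ± 0.23). Fgf9 and Gdnf, growth factors for supporting and germ cells, had log2 fold changes of -1.28 and -1.59, and the call of Fgf9 was lost in the voom test. Amh, the Müllerian inhibitor, was called higher in XY (-2.0 ± 0.67, adjusted p = 0.0202) but rested on low values of 4.32, 4.97, 4.48 and 0.474 CPM in XY and 0, 1.17, 1.49 and 0.523 CPM in XX. Its groups overlapped, and the call was lost in the stricter test and the voom test, after thinning to equal totals, and without replicate F11, F8, M2 or M4. The 2 products higher in XX were Inha, the inhibin α subunit, at 983, 863, 817 and 889 CPM against 364, 449, 488 and 382 CPM (1.08 ± 0.14), and Cst8.

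Cst8 and Cst9 belong to a cluster of cystatin genes on chromosome 2 whose members moved in opposite directions. The 5 genes span 70.1 kb of GRCm39 and are given in order of position. Cst11 (chr2:148610529-148613423) was 3.12 CPM in XX and 12.7 CPM in XY (-1.94 ± 0.47), a call lost in the voom test. Cstdc1 (chr2:148623929-148627858) was higher in XY as given above. Cst12 (chr2:148631281-148635816) was 158, 235, 136 and 174 CPM in XX and 21.9, 23.9, 24.9 and 20.4 CPM in XY (2.94 ± 0.22). Cst8 (chr2:148640539-148647519) was 150, 152, 128 and 140 CPM in XX and 56.5, 59.7, 67.7 and 39.3 CPM in XY (1.35 ± 0.18). Cst9 (chr2:148677039-148680659) was higher in XY. In this order the first pair was higher in XY, the next pair in XX and the last gene in XY. Cst11 and Cst12 were picked out after their values were seen, and reads shared between related cystatins could not be checked here.

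Promoters of Cst8 and Cst9 are shown because these neighbours differ in direction. That of Amhr2, at 408 CPM on average in XX, was picked by hand. Other XX DEGs, such as Anxa2 at 1108 CPM, were more abundant. Each run is the 250 bases before the RefSeq start on GRCm38.p6, 5′ to 3′ on the strand of the gene, with the letters CAAGGTCA, to which the nuclear receptors NR5A1 and NR5A2 bind, in capitals.
Amhr2 (chr15:102445117-102445366): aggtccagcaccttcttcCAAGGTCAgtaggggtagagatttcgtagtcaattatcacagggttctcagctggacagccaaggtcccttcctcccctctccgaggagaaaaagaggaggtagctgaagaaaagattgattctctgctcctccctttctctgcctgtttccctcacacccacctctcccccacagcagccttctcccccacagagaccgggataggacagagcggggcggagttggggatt
Cst8 (chr2:148798589-148798838): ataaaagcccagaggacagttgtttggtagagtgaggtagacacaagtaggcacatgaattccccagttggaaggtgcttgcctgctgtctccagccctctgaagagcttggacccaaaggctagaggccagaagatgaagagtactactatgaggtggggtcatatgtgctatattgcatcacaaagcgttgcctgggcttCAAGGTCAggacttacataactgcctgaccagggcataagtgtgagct
Cst9 (chr2:148834897-148835146): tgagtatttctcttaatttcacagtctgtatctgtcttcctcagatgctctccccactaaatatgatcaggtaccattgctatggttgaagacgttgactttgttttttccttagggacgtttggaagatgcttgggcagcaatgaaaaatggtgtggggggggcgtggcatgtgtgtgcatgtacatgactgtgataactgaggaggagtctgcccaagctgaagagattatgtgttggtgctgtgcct
The motif begins 232 bases before the start of Amhr2 and 48 bases before that of Cst8, and these letters do not occur on either strand of the Cst9 window. Searched on both strands, it occurred in 22 of the 1024 XX DEGs with a promoter in the table (2.15%), in 11 of the 1062 XY DEGs (1.04%) and in 98 of all 9891 autosomal genes tested that had one (0.991%). The motif was chosen after the values of Nr5a2 had been seen, and a match is a string of letters, not a shown binding site.

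Hedgehog genes were higher in the testis at the level of the ligand and of its targets. Dhh, the Sertoli ligand, was 3.27, 9.4, 7.73 and 8.37 CPM in XX and 59.5, 60.2, 61.2 and 36.5 CPM in XY (-2.92 ± 0.31). Ptch1, receptor and target, was 31.3, 28.2, 31.8 and 47.1 CPM in XX and 210, 169, 176 and 199 CPM in XY (-2.45 ± 0.17). Gli1, the transcriptional readout, was 15.4, 14.1, 26.4 and 26.2 CPM in XX and 118, 103, 103 and 100 CPM in XY (-2.33 ± 0.19), and no XX library reached the lowest XY library in any of the 3. Hhip and Gli2 followed with log2 fold changes of -2.18 and -1.26. Of 14 genes tested 6 were DEGs higher in XY, all 6 passed the stricter test, and 0 were higher in XX (median -0.47). Smo, Gli3, Boc, Gas1 and Sufu were not DEGs, with log2 fold changes of -0.47, -0.46, -0.11, -0.34 and 0.00; without replicate F11, Smo and Gli3 became DEGs higher in XY (-0.61 and -0.69).

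Steroidogenic genes of foetal Leydig cells did not move as a block. Cyp11a1, which makes pregnenolone, was 6.54, 15.3, 42.2 and 14.6 CPM in XX and 87.8, 103, 166 and 135 CPM in XY (-2.50 ± 0.29). Lhcgr, the luteinising hormone receptor, was 1.4, 1.76, 2.67 and 7.32 CPM in XX and 14.3, 8.45, 13.9 and 19.4 CPM in XY (-2.12 ± 0.37). Prlr, the prolactin receptor, was also higher in XY (-1.48 ± 0.15). So were Hsd3b6 and Cyp17a1, while Star was not a DEG. Hsd3b6 rested on 24 counts in XY and 1 in XX (ratio 24.1, interval 3.93 to 990). Hsd3b1, which follows Cyp11a1 in the pathway, was higher in XX instead, at 431, 454, 475 and 436 CPM against 252, 255, 351 and 240 CPM (0.71 ± 0.17, adjusted p = 0.00106), with Akr1cl (0.96 ± 0.10) and Cyb5a (0.80 ± 0.11). Hsd3b1 and Cyb5a did not pass the stricter or the voom test. Of 18 genes tested 5 were higher in XY and 3 in XX (3 and 1 in the stricter test, median 0.22; 3 in XY without replicate F8). Insl3, the Leydig hormone for testis descent, was below the count filter, with a value above 0 only in replicate M6 (0.947 CPM). In cholesterol handling, 4 of 24 genes were higher in XX and 0 in XY (1 in the stricter test, 2 without replicate F11, 1 without M2, median 0.21). The esterifying enzyme Soat1 led, at 1041, 1094, 737 and 1079 CPM in XX and 204, 206, 248 and 227 CPM in XY (2.16 ± 0.12). Fdft1 and Hmgcs1 of the synthesis pathway lay near the threshold, at 0.64 and 0.62, and passed neither the stricter nor the voom test.

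Interstitial genes formed the list with the highest share of XY DEGs, 15 of 19 tested against 0 in XX (13 in the stricter test, median -1.17). The lists share members, so their counts are not separate results. Inhba, Gli1, Pdgfra, Wnt5a, Dlk1, Igf1, Tcf21, Nr2f2, Nr2f1, Col1a1 and Col3a1 are among these DEGs and also stand in other lists. Pdgfra, a receptor of interstitial progenitors, was 108, 68.1, 121 and 131 CPM in XX and 360, 369, 296 and 386 CPM in XY (-1.71 ± 0.15). Vcam1, Wnt5a, Nes and Dcn followed with log2 fold changes of -2.14, -1.57, -1.35 and -1.17. Among 19 smooth muscle and contractile genes 10 were higher in XY and 1, Myh11, in XX (6 and 0 in the stricter test, median -0.83). Acta2, smooth muscle actin, was 136, 164, 150 and 118 CPM in XX and 416, 388, 346 and 454 CPM in XY (-1.50 ± 0.13). Myocd, the master regulator of smooth muscle genes, was 1.87, 3.52, 2.08 and 5.23 CPM in XX and 17, 12.9, 16.4 and 20.8 CPM in XY (-2.46 ± 0.39). Both were lower in all XX libraries. Pericyte genes gave 4 in XY and 1 in XX of 9 (2 and 1 in the stricter test, median -0.22). The summed level of the interstitial list was 3024 to 4174 CPM in XX and 6655 to 7290 CPM in XY.

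Of 24 basement membrane genes 12 were higher in XY and 1 in XX (6 and 1 in the stricter test, median -0.68). Col4a4, a type IV collagen chain, was 22.4, 19.4, 15.2 and 21.5 CPM in XX and 157, 145, 158 and 170 CPM in XY (-3.03 ± 0.21). Col4a3, its partner chain, was 2.37 and 17 CPM (-2.79 ± 0.37). The genes run in opposite directions on chromosome 1 and share 159 bases at their 5′ ends in the annotation. Col15a1 (-2.58 ± 0.23), Lamc3 (-1.87 ± 0.26) and Lama2 (-1.67 ± 0.19) were also higher in XY. Lama1, the α chain of laminin-111, was the exception at 136, 102, 114 and 150 CPM in XX and 50.5, 61.7, 46.8 and 51.6 CPM in XY (1.25 ± 0.16). Of 21 fibrillar collagen and cartilage-type matrix genes 13 were higher in XY and 0 in XX (6 in the stricter test, median -0.75), with Col9a3 (-3.45 ± 0.28), Col27a1 (-1.32 ± 0.16), Fn1 (-1.05 ± 0.12) and Col3a1 (-0.85 ± 0.11).

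**Figure D3:**
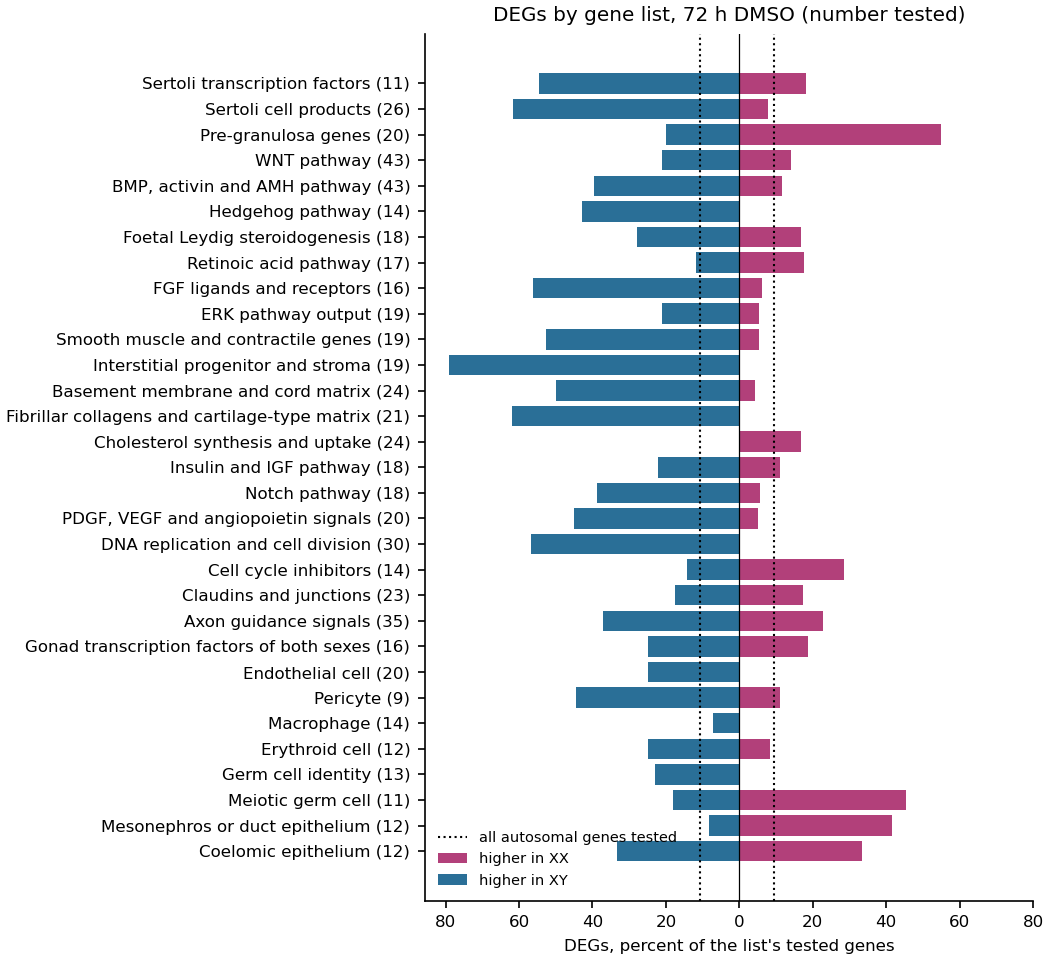
Share of the tested genes in each list that were DEGs higher in XX (right, magenta) or higher in XY (left, blue), in percent. The number tested is in brackets, and lists were chosen with earlier results of these data known. Some genes belong to several lists. Dotted lines mark the shares over all autosomal genes tested, 9.4% and 10.7%; the interstitial list reaches furthest to the left and the pre-granulosa list furthest to the right.

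Of 43 BMP, activin and AMH genes 17 were higher in XY, 5 were higher in XX and 21 were not DEGs (8 and 5 in the stricter test, median -0.53). The activin βA subunit Inhba was 42.1, 42.3, 33.3 and 52.3 CPM in XX and 272, 263, 243 and 278 CPM in XY (-2.66 ± 0.18, adjusted p = 6.92e-18), while Inha, which turns activin into inhibin, was higher in XX as given above. Amhr2, the receptor for AMH, was 417, 417, 412 and 386 CPM in XX and 115, 125, 133 and 82.4 CPM in XY (1.84 ± 0.15). Bmp3, an atypical BMP that antagonises others, was 47.2, 42.9, 44.3 and 61.2 CPM in XX and 2.66, 0.995, 5.48 and 1.42 CPM in XY (4.19 ± 0.45). None of these 3 overlapped between the groups. Bmp7 was also higher in XX (1.17 ± 0.22), and Bmp5, Grem1, Tgfb1 and Tgfb3 in XY (-2.53, -2.89, -1.99 and -0.93). The calls of Bmp7, Grem1 and Tgfb3 were lost in the voom test.

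Of 43 WNT genes 6 were higher in XX, 9 were higher in XY and 28 were not DEGs (4 and 6 in the stricter test, median -0.17). The shares over all autosomal genes were 9.4% in XX and 10.7% in XY. Lef1, the nuclear effector, was 37.4, 40.5, 50.5 and 42.9 CPM in XX and 13, 11.9, 13.4 and 9.47 CPM in XY (1.84 ± 0.19). Rnf43, a feedback target that removes frizzled receptors, was 17.3, 22.3, 19.9 and 29.8 CPM in XX and 4.99, 6.47, 7.97 and 3.32 CPM in XY (1.97 ± 0.29). The ligand Wnt6 (1.36 ± 0.15) was higher in XX too. Wnt5a, Rspo3, Sfrp1, Sfrp4 and Fzd2 were higher in XY (-1.57, -1.53, -0.81, -2.46 and -0.85), with the calls of Sfrp1 and Fzd2 lost in the voom test.

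FGF genes were higher in XY for 9 of 16 tested and in XX for 1 (5 and 0 in the stricter test, median -0.83). Fgf10 was 0, 2.94, 1.49 and 3.66 CPM in XX and 14, 14.4, 7.47 and 10.9 CPM in XY (-2.61 ± 0.47), and Fgfbp1, a carrier that releases FGFs from matrix, was -3.10 ± 0.64 on the log2 scale. The receptors went in opposite directions, with Fgfr1 higher in XY (41 against 74 CPM, -0.86 ± 0.15) and Fgfr2 higher in XX (42.8 against 25.8 CPM, 0.73 ± 0.21), neither past the stricter or the voom test. Of 19 genes that report ERK signalling 4 were higher in XY and 1 in XX (3 and 0 in the stricter test, median -0.31). Etv1 (-1.44 ± 0.19), Spry1 (-1.51 ± 0.30) and Epha2 (-1.70 ± 0.30) passed, whereas Egr1 (-0.14 ± 0.14) and Spry4 (-0.26 ± 0.26) were no DEGs.

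Among the other signalling lists, PDGF, VEGF and angiopoietin genes were higher in XY for 9 of 20 and in XX for 1 (3 and 0 in the stricter test, median -0.65), with Pgf (-1.78 ± 0.19) and the semaphorin co-receptor Nrp1 (-1.34 ± 0.16). Notch genes gave 7 in XY and 1 in XX of 18 (5 and 0, median -0.31). The ligand Jag1 (-1.42 ± 0.21) and the receptor Notch3 (-1.39 ± 0.20) were on the testis side, and Hes1 (0.80 ± 0.14) on the ovarian side, past neither the stricter nor the voom test. Axon guidance genes gave 13 in XY and 8 in XX of 35 (9 and 3, median -0.32), with Slit3, Robo2 and Efna5 in XY (-1.93, -1.58 and -1.69) and Efna1 and Plxna4 in XX (1.74 and 1.47). Insulin and IGF genes gave 4 in XY and 2 in XX of 18 (3 and 0, median -0.37). Igfbp7 was 88.1 CPM in XX and 292 CPM in XY (-1.73 ± 0.13). Retinoic acid genes gave 3 in XX and 2 in XY of 17 (2 and 1, median -0.09), with the synthesising enzyme Aldh1a2 and the reductase Dhrs3 in XX (0.98 and 1.42) and Aldh1a1 in XY (-1.43). Claudin and junction genes gave 4 in each direction of 23 (3 and 3, median -0.24), with the gap junction gene Gja1 in XX (1.24 ± 0.12) and the mesenchymal cadherin Cdh11 in XY (-1.35 ± 0.13). Beside all these counts stand the shares over all autosomal genes, 9.4% in XX and 10.7% in XY.

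Of 30 replication and division genes 17 were higher in XY, 0 were higher in XX and 13 were not DEGs, 28 of 30 had a negative log2 fold change, and the median was -0.68. Of the 17, only Mki67, Top2a, Mcm3 and Aurkb passed the stricter test, and Mcm3 and Aurkb did not pass the voom test. Mki67, the proliferation antigen, was 129, 104, 178 and 130 CPM in XX and 344, 322, 276 and 288 CPM in XY (-1.17 ± 0.14). Top2a was 256, 252, 278 and 275 CPM in XX and 540, 537, 500 and 501 CPM in XY (-0.97 ± 0.10). Of 14 inhibitors of the cell cycle 4 were higher in XX, 2 were higher in XY and 8 were not DEGs (3 and 0 in the stricter test, median 0.24; the 2 became 1 without F11, F4, M2, M4 or M6). Cdkn1b (p27) was 187, 225, 156 and 219 CPM in XX and 42.9, 40.8, 37.3 and 41.2 CPM in XY (2.27 ± 0.16). Cdkn1c (p57) was 1117, 1509, 1067 and 1141 CPM in XX and 323, 329, 487 and 389 CPM in XY (1.66 ± 0.13). Gadd45g, a stress-inducible growth regulator that also acts in testis determination, was 283 CPM in XX and 87.5 CPM in XY (1.70 ± 0.14).

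**Figure D4:**
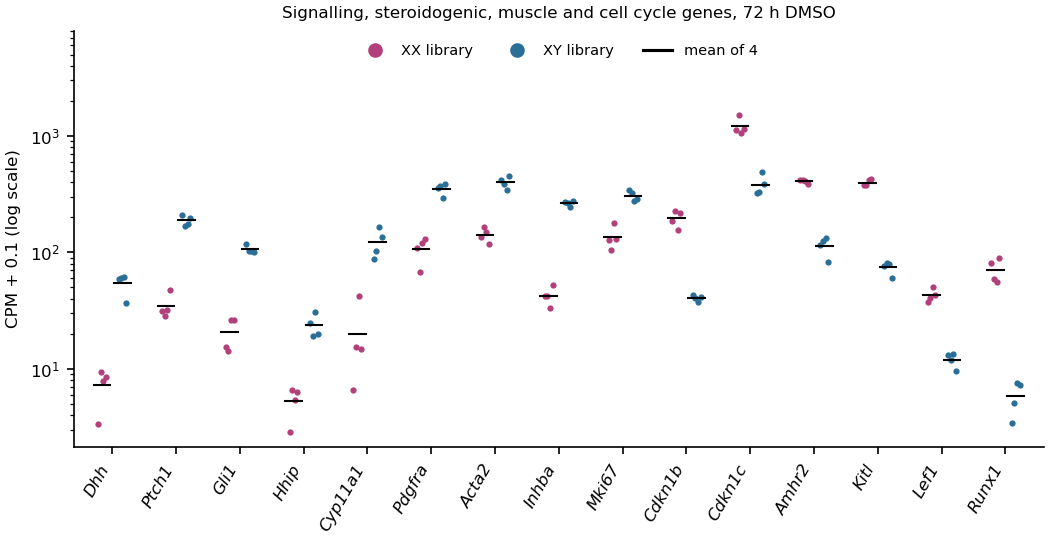
CPM plus 0.1 on a log scale (vertical axis) for 15 signalling, steroidogenic, muscle and cell cycle genes (columns), 1 point per library with a bar for the mean of 4. From Dhh to Mki67 the XY points lie above the XX points, and from Cdkn1b to Runx1 the order is the reverse. No gene in the plot overlaps between the groups, where 26.8% of the 14537 autosomal genes had no overlap. The 15 genes were picked by hand with earlier results of these data known.

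Markers of other cells in the sorted fraction moved with sex in part, and their part in the results above was not tested. Their counts stand beside shares of 9.4% in XX and 10.7% in XY over all autosomal genes. Germ cell identity genes summed to 29.3 to 47.7 CPM in XX and 39.3 to 57.2 CPM in XY (0 of 13 higher in XX, 3 in XY, 2 in the stricter test, median -0.96), with 7 more of the list below the count filter. Meiotic genes summed to 56.2 to 135 CPM in XX and 69.2 to 76.1 CPM in XY, with 5 of 11 higher in XX and 2 in XY (5 and 0 in the stricter test, median 1.78). The 5 became 3 without replicate F11 and 1 when only the 8 libraries were fitted. Smc1b, a cohesin of meiotic chromosomes, was 34.6, 26.4, 7.43 and 34 CPM in XX and 3.99, 6.47, 6.47 and 1.42 CPM in XY (2.43 ± 0.35). Rec8, another, was 4.21, 5.29, 2.38 and 11 CPM in XX and 0, 0, 1.49 and 0.474 CPM in XY (3.48 ± 0.75). For both, every XX library was above every XY library. Endothelial genes were 0 of 20 higher in XX and 5 in XY (0 and 1 in the stricter test, median -0.34; sums of 204 to 271 and 245 to 379 CPM). The 5 became 1 without replicate F11, 2 without M4 and 3 without F7, F8 or M5. For macrophage genes the counts were 0 and 1 of 14 (0 and 1, median -0.42; 74.8 to 283 and 116 to 384 CPM). Erythroid genes gave 1 in XX and 3 in XY of 12 (1 and 2, median -0.87; 172 to 631 and 316 to 1731 CPM), and the 3 were globins. Duct epithelium genes were 5 in XX and 1 in XY of 12 (2 and 0, median 0.87; 322 to 402 and 162 to 237 CPM), led by the keratins Krt8 (1.47 ± 0.24) and Krt18 (1.32 ± 0.18). Coelomic epithelium genes were 4 in each direction of 12 (2 and 3, median -0.24; 1402 to 1513 and 867 to 925 CPM), with Cpe in XX (1.38 ± 0.13).

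The same contrast can be set beside that of uncultured E12.5 gonads and of gonads cultured for 24 h in DMSO, with the limit that the 72 h libraries are library set 4 and both others set 3, so time and set cannot be told apart. The uncultured contrast called 2514 autosomal DEGs (17.3%; 7.81% higher in XX and 9.48% in XY) and the 24 h contrast 2821 (19.4%; 8.83% and 10.6%). Of the 1363 XX DEGs at 72 h, 837 were also higher in XX at 24 h (61.4% of the 72 h list and 65.4% of the 24 h list) and 587 in uncultured gonads (43.1% and 51.9%). Of the 1562 XY DEGs, 959 were also higher in XY at 24 h (61.4% and 62.4%) and 697 in uncultured gonads (44.6% and 50.6%). All 3 times shared 503 XX and 519 XY DEGs. Calls in opposite directions were few, 10 and 8 genes against 24 h and 53 and 25 against uncultured gonads.

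Several DEGs named above had a smaller difference before culture. Nr5a2 had log2 fold changes of -0.55 uncultured, 1.90 at 24 h and 5.82 at 72 h, Col8a1 -0.34, 1.23 and 5.78, and Slc18a2 0.89, 2.91 and 6.66. Comp had 0.00, -0.48 and -4.46, and Pappa 0.34, -1.49 and -2.41. Others had a similar value throughout, such as Lzts1 (4.70, 5.04 and 4.82), Nt5e (-4.40, -4.37 and -4.67) and Cst9 (-4.84, -4.23 and -4.64). The median of the 26 Sertoli products was -3.66 uncultured, -1.80 at 24 h and -1.74 at 72 h, with 22, 17 and 16 higher in XY and 0, 3 and 2 higher in XX. Amh had -4.92, -3.62 and -2.0, and Sox9 -2.66, -2.17 and -1.80. Hsd3b1 was called in the opposite direction before, with -1.25 uncultured, -2.45 at 24 h and 0.71 at 72 h. None of these differences between times was tested.

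**Figure D5:**
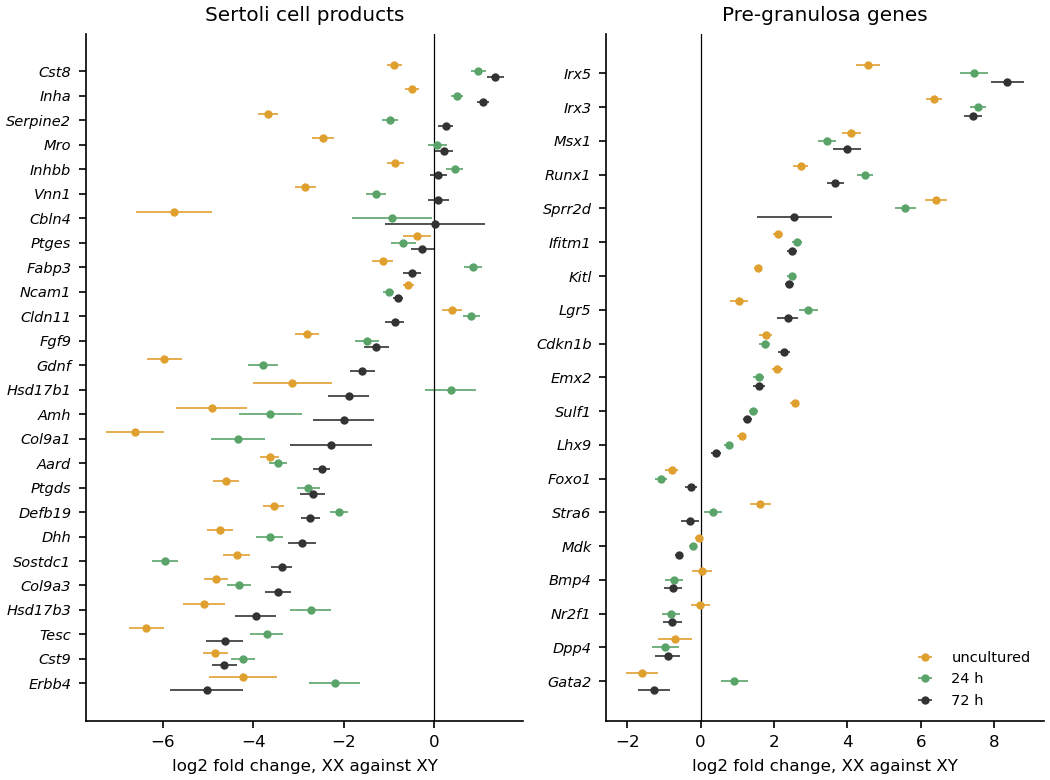
Log2 fold change of XX against XY (horizontal axis, points with bars of 1 SE) for Sertoli products (left) and pre-granulosa genes (right), 1 line per gene shown, in uncultured gonads (yellow), after 24 h (green) and after 72 h in DMSO (black). The left panel has a median of -3.66, -1.80 and -1.74 at the 3 times, and in the right panel Irx3 and Irx5 lie far to the right at each.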

How the data were processed

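GFP-negative cells sorted from XX and XY gonads after 72 h of culture with DMSO were profiled by 3′ RNA sequencing with unique molecular identifiers (UMIs); the library protocol is described for the germ cells of the same study. The authors mapped reads with Rsubread (build GRCm39). With scPipe they counted UMIs over GENCODE exons by strand, allowing for a mismatch, then added the lanes and deposited raw counts per gene and library. The UMI length differs between the methods and the deposited code. The labels name 39 libraries, and 1 further column was not used. Identifiers without a gene position held 1.01% of counts and entered no autosomal result.

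The test used edgeR 4.0.16 (R 4.3.3). Low genes were removed with filterByExpr, libraries scaled by TMM, and 10 group means fitted over the 39 libraries by the quasi-likelihood method. The contrast was XX minus XY at 72 h, p-values were adjusted by Benjamini-Hochberg over the 15390 genes, and DEGs needed an adjusted p below 0.05 and 1.5-fold. The stricter test is edgeR's glmTreat at 1.5-fold. CPM are counts scaled to a TMM-adjusted library total of 1000000. The authors' own test was limma voom with quality weights and treat, run here as an alternative (limma 3.58.1), with DESeq2 1.42.0, other scalings and filters, fits of fewer libraries, and each replicate left out. Data were simulated for the 72 h comparison on 15222 genes. Of genes changed by a log2 fold of 1, 84 of 100 were recovered, and 98 of 100 changed by 2, with 4 false calls. The changed genes were drawn from those with an average log2 CPM above 2, so recovery of lower genes was not tested.

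Genes were named by rule: in each direction the 15 DEGs of largest fold with at least 10 CPM in the higher group and no overlap, the 10 of largest F statistic, and members of 31 gene lists described by counts and medians. Members and lists were chosen with earlier results of these data known. Cst11, Cst12, Irx3os, the promoter motif and thinning to equal totals were chosen after values were seen. Depth was 1763507 to 3240658 counts per library; ratio intervals (exact binomial, 95%) and floors cover counting error only. Replicates differed by more than sampling noise (chi-square per degree of freedom 2.32 to 4.63 over 12 pairs). Positions are from GENCODE on GRCm39, promoters from RefSeq on GRCm38.p6. Values of 2 members of the lists are not reported here.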

Additional observations from a re-analysis of the deposited data

Results flagged for a closer look

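A gap test on 4 values was run on 161 genes named in the text and on the library measures. It took the gap between the extreme library and its nearest neighbour over the whole range, and a ratio above Dixon's 95% critical value passed. Chance alone passes about 5% of such groups, and 24 of the 328 groups examined passed. For Adamdec1, Irx5, Cga, L3mbtl4 and Insl3 in XY and for D430041D05Rik and Wfdc18 in XX the ratio was 1.0000 because a single library held any count. For Crygb in XY it was 0.951, with M2 at 0 CPM and the others at 0.474 to 0.498.

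Replicate M6 was the lowest XY library for Dhh (36.5 CPM against 59.5 to 61.2, ratio 0.929), Amh (0.474 against 4.32 to 4.97, 0.855) and Map3k21 (21.8 against 34.3 to 36.9, 0.8291). Replicate M5 stood apart in XY for Comp (15.4 CPM against 8.45 to 9.64, 0.830), Tnfrsf19 (13.9 against 9.95 to 10.4, 0.876), Hsd3b1 (351 against 240 to 255, 0.865), Robo2 (199 against 239 to 247, 0.847) and Osr1 (63.2 against 83.9 to 84.5, 0.967). Replicate M2 was lowest in XY for Aldh1a1 (476 CPM against 510 to 515, 0.856) and had the largest XY total, 2905471 counts (0.889).

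In XX, replicate F11 was highest for Niban1 (230 CPM against 177 to 179, 0.961) and Fzd2 (116 against 92.6 to 93, 0.983), F4 for Cdkn1c (1509 against 1067 to 1141, 0.833), while F7 was lowest for Wt1 (421 against 515 to 535, 0.8294) and Soat1 (737 against 1041 to 1094, 0.851) and F8 for Amhr2 (386 against 412 to 417, 0.846). None of these values crossed to the other group's range for the DEGs named, apart from Amh.

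Among the 161 genes examined, some had the opposite sign of XX against XY at another time, with no overlap of libraries at either. They were Cst8 (log2 fold change 1.35 at 72 h and -0.88 uncultured), Smc1b (2.43 and -1.67 uncultured) and Hsd3b1 (0.71 at 72 h, -2.45 at 24 h and -1.25 uncultured). Over all XX and XY DEGs at 72 h, 10 and 8 genes were called in the opposite direction at 24 h and 53 and 25 in uncultured gonads. These differences between times were not tested, and time cannot be told apart from library set.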

How the results depend on the processing

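Tests of the 1.5-fold threshold itself gave smaller counts of DEGs, by construction. With glmTreat the count was 1435 at 72 h (693 higher in XX, 742 in XY), 1528 at 24 h (698 and 830) and 1341 uncultured (632 and 709). With voom, quality weights and treat it was 1035 at 72 h (538 and 497), 1110 at 24 h (543 and 567) and 895 uncultured (453 and 442). The other 138 of 156 recomputed counts, under DESeq2, other scalings, other filters on low counts, fits of fewer libraries, thinning and single replicates left out, stayed within 1.5 times the reported value. Leaving out each replicate gave 2628 to 2882 DEGs at 72 h (1267 to 1358 in XX, 1361 to 1529 in XY), 2586 to 2737 at 24 h (1221 to 1297 and 1332 to 1495) and 2379 to 2442 uncultured (1083 to 1163 and 1233 to 1332). The difference in mean total counts, XX minus XY, was 7295 and ranged from -319214 to 224507 without single replicates. Values were recomputed for the 45 genes named by fold or F and for 115 others taken by hand from the text. Of these 2870 values none changed sign, 35 lost the call and 2 gained one. The 35 fell on 19 genes. Gata2, Dpp4, Nr2f1, Bmp4 and Myh11 were not among the genes recomputed, and their calls were lost in the stricter test. Amh, Fdft1 and Hmgcs1 lost it also when single replicates were left out, Amh also after thinning, and Cyb5a, Hsd3b1, Fgfr1, Fgfr2 and Hes1 only in both tests of the 1.5-fold threshold. Sox10, Fgf9, Fzd2, Sfrp1, Grem1, Bmp7, Tgfb3, Nr2f2, Mcm3, Aurkb and Cst11 lost it only with voom, quality weights and treat. No paired analysis was possible because the XX and XY libraries at 72 h share only 1 replicate number.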
